A study of Mus musculus with 9 samples.

Results

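The eIF2 alpha kinases and their regulators were followed in MC38 cells as 7 genes, taken by symbol from a table of 16509 genes: the kinases Eif2ak1, Eif2ak2, Eif2ak3 and Eif2ak4, the phosphatase subunit Ppp1r15b, the protease Oma1 and the adaptor Nck1. MC38 is a mouse colon carcinoma cell line. Messenger RNA was sequenced in 9 libraries, 3 from control cells (Ctrl), 3 from cells given copper and cystine (Cu-Cys) and 3 from cells given Cadict, a nanodrug made of copper, cystine and glucose oxidase and coated with the EGFR-binding peptide GE11. Ctrl cells are labelled as DMSO-treated, whereas the study's text names PBS, and neither source gives a dose or a time of treatment for these libraries. The study's general methods refer to n as biological replicates, and its legend gives n = 3 for this sequencing. The cultures behind these libraries are not described further. The p-values thus measure the spread between these libraries, which may in part be technical.

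Heme shortage, double-stranded RNA, unfolded proteins and amino acid shortage are each read by one of these kinases, and all end in phosphorylation of the alpha subunit of the initiation factor eIF2. Phosphorylated eIF2 holds back its exchange factor eIF2B, so that general translation slows while a few messages, Atf4 among them, are translated more. The signal is switched off by protein phosphatase 1, which is steered to eIF2 alpha by Ppp1r15b (CReP) in resting cells and by the inducible Ppp1r15a (GADD34) after stress. These proteins are controlled largely by binding partners and phosphorylation, and none was measured in these libraries. Their transcript levels thus give neither the amount nor the activity of each protein.

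The libraries held 17905771 to 18293056 counts each. Levels are given as CPM, counts relative to a common library size after edgeR's TMM scaling between libraries. A floor was set at 3 counts, up to which a listed 0 may hide a gene by counting error alone. Relative to library totals, without the TMM scaling, this floor stood at 0.164 to 0.168 CPM. On the TMM scale of the levels below, the same floor was lower in Ctrl and Cu-Cys and higher in Cadict. All 7 genes passed the filter on low counts, with 44 to 7691 counts per library. The TMM factors lay at 1.26 to 1.27 for Ctrl, at 1.21 for Cu-Cys and at 0.640 to 0.665 for Cadict. With library totals in their place, the median change over the 11949 tested genes in Cadict against Ctrl was lower by a log2 shift of -0.95. The shift was 0.12 with DESeq2's size factors, -1.001 with the deposited TPM and -0.65 with the deposited FPKM. TPM and FPKM are both corrected for transcript length, and 1 was added to each value before the log2. With 0.1 added instead the TPM shift was -1.26, so these shifts also depend on the added value. Changes below are thus relative to the bulk of genes, whose median under TMM was -0.13 in Cadict and 0.0067 in Cu-Cys, each against Ctrl and in log2 units. RNA per cell was not measured, and in bulk RNA a smaller amount of RNA per cell and fewer surviving cells cannot be told apart. Cadict replicate 2 stood apart from its group, with a chi-square per degree of freedom of 14.8 and 23.3 against the other two, compared with 1.89 to 2.06 among Ctrl libraries. Without it, the log2 fold changes in Cadict against Ctrl were -0.69 for Eif2ak1, -1.12 for Eif2ak2, -1.63 for Eif2ak3, -1.45 for Eif2ak4, 1.52 for Ppp1r15b, -1.61 for Oma1 and -0.88 for Nck1, close to the values with it below. Of 6 markers of colon epithelium, Epcam (0 to 4 counts per library), Krt18 (0 to 2), Vil1 (0 to 5) and Krt8 (1 to 17) were too low to be tested, and Krt19 and Cdh1 were called higher in Cadict against Ctrl (log2 fold changes 3.34 and 1.39, edgeR adjusted p = 4.5e-11 and 3.2e-09). The summed TPM of the 6 was 4.22 to 6.24 in Ctrl, 3.50 to 3.95 in Cu-Cys and 11.5 to 13.2 in Cadict. That of 7 fibroblast markers went the other way in Cadict, at 438.3 to 478.8 in Ctrl, 206.8 to 217.7 in Cu-Cys and 31.8 to 39.9 in Cadict. The largest parts were Col1a2 and Col3a1, with mean TPM of 247.6 and 150.2 in Ctrl. Of 6 tested in Cadict against Ctrl, 5 were lower under TMM and the low Dcn was higher (log2 fold change 0.82, edgeR adjusted p = 0.0188). Lum had at most 1 count in any library. Of the leukocyte markers, Cd68 had a mean TPM of 7.05 in Ctrl, 4.95 in Cu-Cys and 15.9 in Cadict, and Ptprc and Itgam had at most 4 counts in any library. The part of these marker changes in the results below was not tested.

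In Cadict against Ctrl, the transcripts of all 4 kinases, Oma1 and Nck1 fell and that of Ppp1r15b rose. With an adjusted p limit of 0.05 (edgeR's quasi-likelihood test, Benjamini-Hochberg over all tested genes), 6 of 7 genes were lower and 1 was higher. Among all tested genes 87.7% passed, 47.1% lower and 40.6% higher. At the study's threshold, a change of 2-fold or more with an adjusted p of 0.001 or less, 4 genes were called lower and 1 higher, where 47.8% of all tested genes were called, 27.1% lower and 20.7% higher. The libraries of the 2 groups did not overlap for any of the 7, 6 lower and 1 higher, as for 87.5% of all tested genes, 47.3% lower and 40.3% higher. A call was thus a common outcome in these cells. The 7 genes had a median log2 fold change of -1.14, where all tested genes had -0.13. Oma1 fell the most, and 15.7% of tested genes had a lower log2 fold change still, whereas 34.3% were lower than Eif2ak1, which fell the least. The same 6 fell under each of the scalings named above, whereas the rise of Ppp1r15b was reduced by 3 of them and did not pass the test with TPM.

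In Cu-Cys against Ctrl, Eif2ak2, Eif2ak3 and Oma1 were lower with an adjusted p limit of 0.05 and the other 4 did not pass, where 45.0% of all tested genes passed, 22.4% lower and 22.6% higher. The same 3 had an unadjusted p under 0.05. By edgeR, 0 of the 7 genes were called at the study's threshold, which 1.64% of all tested genes passed, 1.47% lower and 0.167% higher, and DESeq2 and limma also called 0. Libraries did not overlap for 5 genes, 4 lower and 1 higher, as for 61.2% of all tested genes, 29.9% lower and 31.4% higher. Over the 7 genes the median was -0.13 in log2 units.

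Cadict against Cu-Cys, which shares its Cadict libraries with the first comparison, gave 3 genes called lower, Eif2ak3, Eif2ak4 and Oma1, and 1 called higher, Ppp1r15b. Among all tested genes 42.2% were called, 23.6% lower and 18.6% higher. With the adjusted p limit of 0.05 the counts were 6 lower and 1 higher, beside 85.9% of all tested genes, 45.6% lower and 40.3% higher. The same 6 and 1 did not overlap between the groups, beside 85.0% of all tested genes, 45.4% lower and 39.6% higher.

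**Figure D1:**
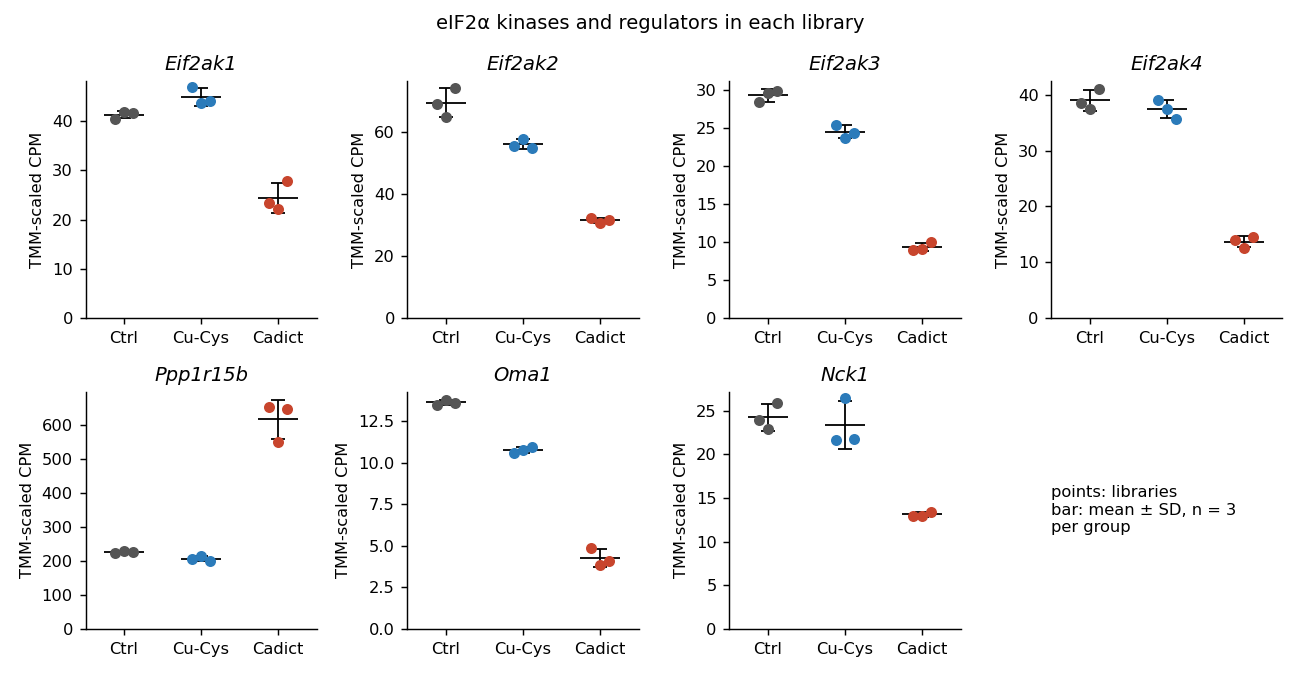
TMM-scaled CPM of the 7 genes in each of 9 libraries (points), with the mean and SD of 3 libraries per group (bars) and each vertical axis starting at 0. The 3 Cadict libraries lie below all Ctrl libraries for 6 genes and above them for Ppp1r15b, an order that is lost for Ppp1r15b when TPM is plotted instead.

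Eif2ak3 encodes PERK, the kinase in the membrane of the endoplasmic reticulum that responds to unfolded proteins in its lumen. Its level was 28.4, 29.7 and 29.95 CPM in Ctrl, 25.5, 23.8 and 24.4 in Cu-Cys, and 8.92, 9.15 and 9.99 in Cadict. The 3 groups did not overlap, with Ctrl highest and Cadict lowest. Compared with Ctrl, Cadict lowered it to 31.9% of the level, the largest fall among the 4 kinases under TMM (log2 fold change -1.65, SE 0.08, edgeR adjusted p = 1.2e-11). Cu-Cys lowered it to 83.7% (log2 fold change -0.26, SE 0.06, edgeR adjusted p = 0.00347). Cadict was also lower than Cu-Cys (log2 fold change -1.39, SE 0.08, edgeR adjusted p = 1.6e-10).

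Upstream of its start, Eif2ak3 holds an unusual number of CCAAT boxes, the letters bound by the factor NF-Y. The 250 bases before the start are shown with each box in capitals (CCAAT, or ATTGG where it lies on the other strand), next to those of Eif2ak1, the kinase with the smallest change in Cadict. Both windows are from RefSeq on GRCm38.p6, at chr6:70844265-70844514 and chr5:143817542-143817791, each on the plus strand. RefSeq windows were found for 6 of the 7 genes, and none was at hand for Ppp1r15b.
Eif2ak3: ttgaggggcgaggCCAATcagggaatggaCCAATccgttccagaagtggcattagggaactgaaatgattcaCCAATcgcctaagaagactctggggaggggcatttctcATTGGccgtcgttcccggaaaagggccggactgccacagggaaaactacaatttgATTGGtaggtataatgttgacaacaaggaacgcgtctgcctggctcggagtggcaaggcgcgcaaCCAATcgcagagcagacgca
Eif2ak1: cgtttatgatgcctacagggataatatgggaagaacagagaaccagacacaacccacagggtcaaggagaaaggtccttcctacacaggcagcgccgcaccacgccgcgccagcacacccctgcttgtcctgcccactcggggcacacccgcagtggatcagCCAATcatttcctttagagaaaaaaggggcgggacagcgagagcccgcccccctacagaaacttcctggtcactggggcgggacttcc
Eif2ak3 had 6 such boxes, a number that 0.0578% of 32851 windows reached, and Eif2ak1 had 1, with its first base at -88. At least 1 box was present in 33.8% of windows. Upstream of Nck1 each of the annotated starts had 2 boxes, as 10.1% of windows did at least, and Eif2ak2, Eif2ak4 and Oma1 had 0. A match describes these letters and not a bound site.

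The other 2 sensors of the endoplasmic reticulum moved the opposite way to Eif2ak3. Ern1 (IRE1 alpha), a kinase and RNase, rose in Cadict against Ctrl (log2 fold change 1.41, SE 0.07, edgeR adjusted p = 3.2e-11), and so did Atf6, a membrane-bound transcription factor (2.24, SE 0.06, edgeR adjusted p = 1.0e-14). With Atf6b, all 3 other sensors that were tested were higher under TMM, 2 of them called, and under library totals 2 were higher and 1 lower. The rise of Ern1 was 0.09 with limma on TPM, which did not pass the test. A ratio of TPM values within a library is free of the scaling between libraries. Eif2ak3 per Ern1 was 2.29 ± 0.0611 in Ctrl (SD, n = 3 here and below), 1.72 ± 0.0443 in Cu-Cys and 0.275 ± 0.0209 in Cadict, and Eif2ak3 per Atf6 was 0.728 ± 0.0297, 0.511 ± 0.0330 and 0.0488 ± 0.00396. The groups did not overlap in either ratio. Of the luminal partners of PERK, the chaperone Hspa5 (BiP) had a log2 fold change of 0.82 (SE 0.05, edgeR adjusted p = 2.3e-10) that became -0.13 under library totals, and the co-chaperone Dnajc3 (p58IPK), an inhibitor of PERK and PKR, fell (-0.37, SE 0.06, edgeR adjusted p = 2.1e-05).

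Eif2ak4 encodes GCN2, which senses uncharged tRNA and stalled ribosomes. It was measured at 38.5, 37.4 and 41.0 CPM in Ctrl, 39.0, 37.5 and 35.7 in Cu-Cys, and 14.0, 12.6 and 14.5 in Cadict. Ctrl and Cu-Cys libraries overlapped, and Cadict libraries lay far below both. The level in Cadict was 35.2% of that in Ctrl (log2 fold change -1.50, SE 0.08, edgeR adjusted p = 2.7e-11), and the difference from Cu-Cys was of similar size (-1.44, SE 0.08, edgeR adjusted p = 6.1e-11). Cu-Cys differed from Ctrl by a log2 fold change of -0.06 (SE 0.06, edgeR adjusted p = 0.453). Its activator Gcn1, a ribosome-bound protein, fell with it in Cadict (-1.22, SE 0.06, edgeR adjusted p = 2.3e-11), and Eif2ak4 per Gcn1 in TPM was 0.536 ± 0.0485, 0.490 ± 0.0304 and 0.446 ± 0.0118 in Ctrl, Cu-Cys and Cadict, where Ctrl and Cu-Cys overlapped. Impact, which competes for Gcn1 and so restrains GCN2, rose in both treatments, by a log2 fold change of 0.62 in Cu-Cys (SE 0.05, edgeR adjusted p = 4.4e-07) and of 2.04 in Cadict (SE 0.05, edgeR adjusted p = 8.5e-15). Eif2ak4 per Impact went from 0.607 ± 0.0559 in Ctrl to 0.376 ± 0.0203 in Cu-Cys and 0.0515 ± 0.00297 in Cadict, without overlap. The cofactor Abcf3, the mammalian relative of a yeast partner of GCN2, fell in Cadict (-0.56, SE 0.07, edgeR adjusted p = 1.1e-06).

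The letters TGACGT, a part of the cAMP response element, lay once before the second annotated start of Eif2ak4. ATF and CREB factors bind this element, and 7.51% of all windows of 300 bases hold these letters on either strand. The 30 bases around them are given with the match in capitals, its first base at -34.
Eif2ak4: tcttattcccacTGACGTcccctaaccacc
Neither the E-box CACGTG nor the core of the C/EBP-ATF composite site was found in a window of the 6 genes, where 7.15% and 3.97% of all windows hold them.

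Eif2ak2 encodes PKR, the kinase that binds double-stranded RNA and is itself induced by interferon. Its level was 68.9, 64.8 and 74.1 CPM in Ctrl, 55.5, 57.8 and 54.7 in Cu-Cys, and 32.2, 30.6 and 31.5 in Cadict. The groups fell into 3 separate levels. Cu-Cys lowered it to 80.8% of Ctrl (log2 fold change -0.31, SE 0.06, edgeR adjusted p = 5.8e-04) and Cadict lowered it to 45.4% (-1.14, SE 0.06, edgeR adjusted p = 1.0e-10). Between Cadict and Cu-Cys the log2 fold change was -0.83 (SE 0.07, edgeR adjusted p = 6.6e-09). Of its 50-base stretches, 0.294% also occurred in the transcripts of another gene.

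The core of the interferon-stimulated response element, the sequence through which interferon induces its target genes, was found once in the Eif2ak2 window, starting 19 bases into the transcript. It was present in 3.44% of all windows and in none of the other windows of the 6 genes. The 30 bases around it carry the core in capitals.
Eif2ak2: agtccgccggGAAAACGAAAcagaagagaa
Of 15 other interferon-stimulated genes in the table, 12 were tested. Under TMM, 8 of them fell in Cu-Cys against Ctrl and 4 did not pass, with 3 called and a median log2 fold change of -0.69. In Cadict against Ctrl, 7 fell, 1 rose and 4 did not pass, with 7 called lower and a median of -1.53, and under library totals 11 fell and 0 rose. Stat2 (log2 fold change -3.22, SE 0.17, edgeR adjusted p = 4.2e-11) and Ifih1 (-3.17, SE 0.20, edgeR adjusted p = 3.8e-10), which encodes the RNA sensor MDA5, had the largest falls at an average of at least 5 CPM. Eif2ak2 fell by less than both. Bst2 was the 1 gene that rose (0.96 in log2 fold change), named here after its value was seen. The proteins that bind double-stranded RNA together with PKR also differed: the activator Prkra (PACT) fell (-2.70, SE 0.13, edgeR adjusted p = 9.3e-12), the inhibitor Tarbp2 (TRBP) fell in Cadict (-1.39, SE 0.11, edgeR adjusted p = 7.5e-09) and rose in Cu-Cys (0.34, edgeR adjusted p = 0.00397), and Adar, an RNA editing enzyme, had a log2 fold change of 0.07 in Cadict (SE 0.06, edgeR adjusted p = 0.254) that turned to -0.88 under library totals.

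Eif2ak1 encodes HRI, a kinase held inactive by heme and activated by the mitochondrial messenger DELE1. It was measured at 40.5, 41.7 and 41.6 CPM in Ctrl, 46.8, 43.6 and 44.1 in Cu-Cys, and 23.5, 22.05 and 27.8 in Cadict. Cadict libraries were the lowest, and replicate 3 stood a little above the other 2. The level fell to 59.2% of Ctrl, the smallest change among the kinases (log2 fold change -0.76, SE 0.08, edgeR adjusted p = 1.4e-07), which did not reach the limit of a 2-fold change under TMM and did under library totals (-1.71). Against Cu-Cys the log2 fold change was -0.88 (SE 0.08, edgeR adjusted p = 2.5e-08). All Cu-Cys libraries were above all Ctrl libraries in CPM, as in 31.4% of all tested genes, with a log2 fold change of 0.12 that did not pass (SE 0.07, edgeR adjusted p = 0.161) and that was -0.03 with limma on TPM. The chaperones that hold HRI, Hsp90aa1 and Hspa8, are also heat shock genes and rose in Cadict by log2 fold changes of 2.57 (SE 0.05, edgeR adjusted p = 2.8e-16) and 2.27 (SE 0.05, edgeR adjusted p = 1.5e-15).

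**Figure D2:**
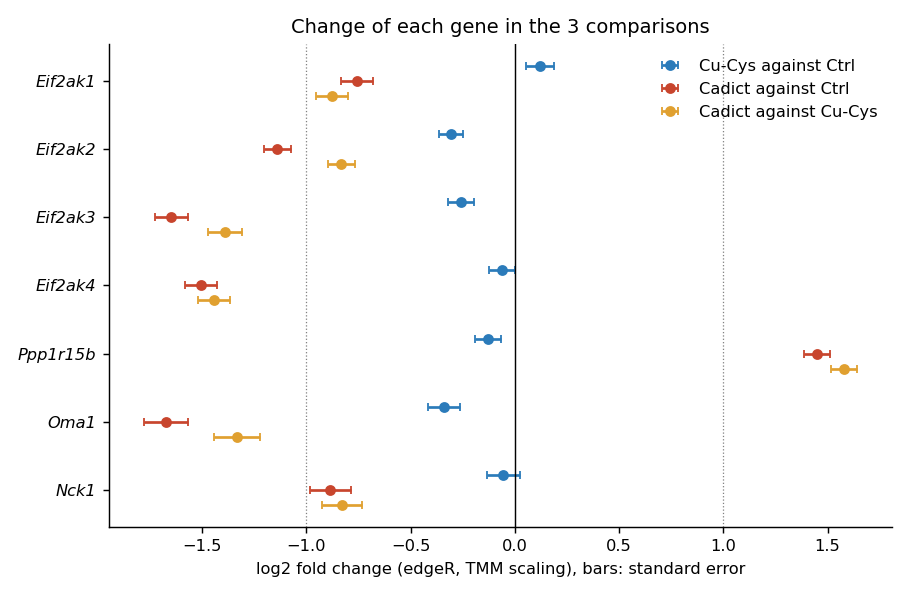
Log2 fold change of each gene in the 3 comparisons (points) with its standard error (bars) from one edgeR fit of 9 libraries, and dotted lines at a 2-fold change. The Cadict comparisons share their Cadict libraries and reach from -1.67 for Oma1 to 1.58 for Ppp1r15b, whereas Cu-Cys against Ctrl stays between -0.34 and 0.12, and under library totals every Cadict value lies lower by about the same amount.

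Ppp1r15b, the constitutive partner of protein phosphatase 1, had the highest TPM of the 7 genes and was the one that rose in Cadict under TMM. Its values were 223.1, 227.4 and 225.5 CPM in Ctrl, 205.3, 214.1 and 199.1 in Cu-Cys, and 650.6, 548.6 and 645.8 in Cadict. Cadict libraries were well above the rest, with replicate 2 the lowest of the 3. The level in Cadict was 2.73 times that in Ctrl (log2 fold change 1.45, SE 0.06, edgeR adjusted p = 4.0e-12), and 13.2% of tested genes rose more. Against Cu-Cys the ratio was 2.98 (log2 fold change 1.58, SE 0.06, edgeR adjusted p = 2.1e-12). In Cu-Cys against Ctrl all libraries were lower, as in 29.9% of tested genes, and the log2 fold change of -0.13 did not pass (SE 0.06, edgeR adjusted p = 0.105), although it did without Cadict replicate 2 in the shared fit (-0.13, edgeR adjusted p = 0.00537).

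How far Ppp1r15b rose depended on the scale. The deposited TPM were 92.3, 91.7 and 90.0 in Ctrl, 74.8, 77.9 and 74.4 in Cu-Cys, and 109.8, 80.9 and 115.2 in Cadict. Cadict replicate 2 was then below every Ctrl library, so the groups overlapped. The log2 fold change against Ctrl was 0.50 under library totals (edgeR adjusted p = 3.4e-06), 0.48 with limma on FPKM (adjusted p = 4.6e-05) and 0.14 with limma on TPM (adjusted p = 0.214), and 1.57 under DESeq2's size factors (edgeR adjusted p = 1.6e-12). Set against the summed TPM of the 4 kinases in the same library, which is free of the scaling, Ppp1r15b stood at 0.970 ± 0.0355 in Ctrl, 0.939 ± 0.0392 in Cu-Cys and 5.78 ± 0.363 in Cadict. The Cadict libraries lay between 5.54 and 6.20 and the Ctrl libraries between 0.932 and 1.00, so the change relative to the kinases did not rest on the scaling or on replicate 2. An exact permutation test of 3 against 3 libraries cannot go below a two-sided p of 0.1.

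**Figure D3:**
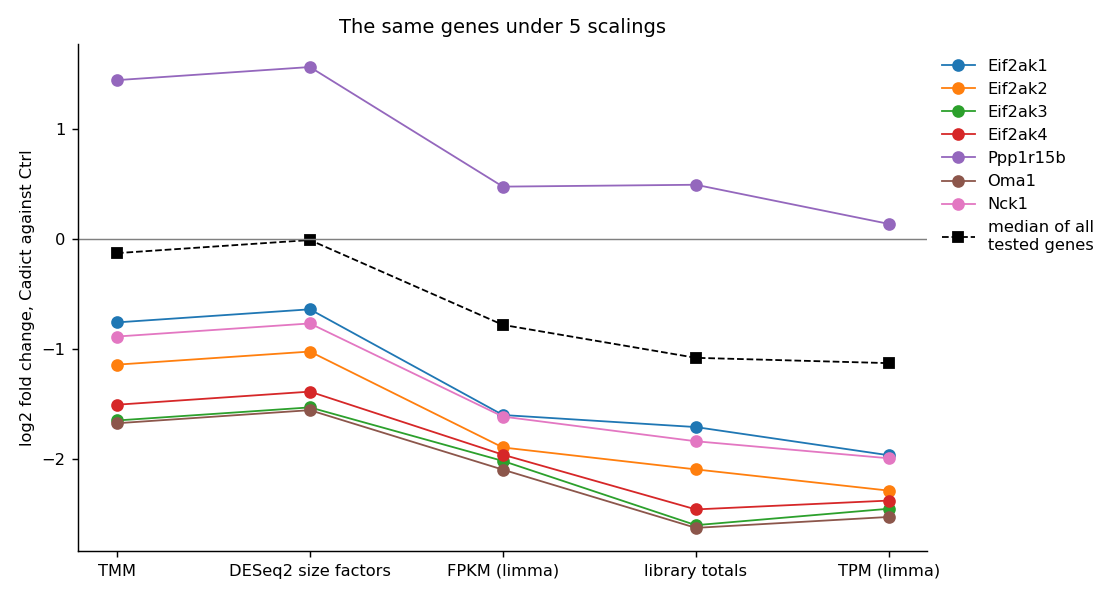
Log2 fold change of the 7 genes in Cadict against Ctrl (coloured lines) under 5 scalings, beside the median of all tested genes (dashed black line). The 6 genes that fell stay below the median of all genes and Ppp1r15b stays above it under each scaling, while the Ppp1r15b value goes from 1.57 with DESeq2's size factors to 0.14 with TPM. TMM, DESeq2's size factors and library totals move all genes by about the same amount, so a gene could not change sides between them.

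The inducible partner Ppp1r15a changed far more than Ppp1r15b. It rose from 25.04 ± 0.323 CPM in Ctrl to 40.6 ± 3.24 in Cu-Cys (log2 fold change 0.70, SE 0.06, edgeR adjusted p = 1.1e-06) and 1341 ± 44.0 in Cadict (5.74, SE 0.07, edgeR adjusted p = 9.4e-18). Ppp1r15b per Ppp1r15a in TPM was 3.42 ± 0.0367 in Ctrl, 1.94 ± 0.190 in Cu-Cys and 0.175 ± 0.0182 in Cadict, so the constitutive partner was the more abundant transcript in the first 2 groups and the less abundant one in Cadict. All 4 other genes of the phosphatase list rose in Cadict under TMM, 2 of them called, whereas under library totals 2 rose and 2 fell. Among the catalytic subunits, Ppp1cb rose under TMM (1.28, SE 0.07, edgeR adjusted p = 1.3e-10) and under library totals (0.33) and was at -0.03 with TPM. Ppp1ca (0.83, SE 0.06, edgeR adjusted p = 1.5e-09) and Ppp1cc (0.33, SE 0.05, edgeR adjusted p = 2.5e-05) turned to -0.13 and -0.62 under library totals.

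Oma1 encodes the protease of the inner mitochondrial membrane that cuts DELE1 and OPA1 when mitochondria are stressed. Its level was 13.5, 13.8 and 13.6 CPM in Ctrl, 10.6, 10.7 and 10.9 in Cu-Cys, and 4.84, 3.83 and 4.11 in Cadict. The groups were far apart for their spread and did not overlap. Cu-Cys lowered it to 79.0% of Ctrl (log2 fold change -0.34, SE 0.08, edgeR adjusted p = 0.00232), the largest of the 7 changes in that comparison, and Cadict lowered it to 31.4% (-1.67, SE 0.10, edgeR adjusted p = 3.5e-10). Cadict was lower than Cu-Cys (-1.33, SE 0.11, edgeR adjusted p = 1.1e-08). Its substrate Dele1, which carries the signal from mitochondria to HRI, had a log2 fold change of 0.32 in Cadict (SE 0.07, edgeR adjusted p = 3.8e-04) that turned to -0.63 under library totals. Oma1 per Dele1 in TPM went from 0.545 ± 0.0319 in Ctrl to 0.448 ± 0.0209 in Cu-Cys and 0.137 ± 0.0213 in Cadict, again without overlap.

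Most other mitochondrial proteases and membrane partners of the list, not all of the inner membrane, did not follow Oma1 under TMM. Of 13 tested, 10 rose, 2 fell and 1 did not pass in Cadict against Ctrl, with a median log2 fold change of 0.78. One of the 2 falls, that of Immp1l, did not pass when Ctrl replicate 2, Ctrl replicate 3, Cadict replicate 1 or Cadict replicate 3 was left out, which gave 1 fall. The list also gave 1 fall with DESeq2's size factors, with the DESeq2 Wald test and with only the 2 groups compared in the fit. Under library totals 4 rose and 7 fell. The matrix protease Lonp1 (2.47, SE 0.05, edgeR adjusted p = 1.4e-15) and the rhomboid protease Parl (1.82, SE 0.06, edgeR adjusted p = 1.9e-13) rose the most at an average of at least 5 CPM and also rose under library totals. Opa1, the fusion protein that OMA1 cuts, fell (-1.39, SE 0.07, edgeR adjusted p = 1.1e-11). In Cu-Cys against Ctrl 4 rose and 9 did not pass.

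Nck1 encodes an SH2 and SH3 adaptor, known from receptor and actin signalling, that also binds eIF2 and PERK and limits eIF2 alpha phosphorylation. It was measured at 23.9, 22.9 and 25.9 CPM in Ctrl, 21.6, 26.5 and 21.8 in Cu-Cys, and 12.9, 12.99 and 13.4 in Cadict. Ctrl and Cu-Cys libraries overlapped, and the Cadict libraries were nearly alike at a lower level. The fall to 54.2% of Ctrl (log2 fold change -0.88, SE 0.10, edgeR adjusted p = 3.5e-07) was short of a 2-fold change under TMM and past it under library totals (-1.84). Cadict was lower than Cu-Cys (-0.83, SE 0.10, edgeR adjusted p = 9.0e-07), and Cu-Cys differed from Ctrl by -0.05 (SE 0.08, edgeR adjusted p = 0.615). Of its 50-base stretches, 1.57% also occurred in another gene.

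Its close relative Nck2 fell much further in Cadict (log2 fold change -3.08, SE 0.12, edgeR adjusted p = 1.7e-12), to 2.39 ± 0.421 CPM from 20.2 ± 1.42 in Ctrl. Nck1 per Nck2 in TPM was 1.36 ± 0.0341 in Ctrl, 1.45 ± 0.204 in Cu-Cys and 6.35 ± 0.941 in Cadict, so that Nck1 made up most of the pair in Cadict. Of 11 other Nck signalling partners, Nck2 included, 4 rose, 5 fell and 2 did not pass in Cadict against Ctrl, with a median log2 fold change of -0.02. Nck2 was the 1 gene of them called at the study's threshold. Under library totals 0 rose and 9 fell.

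**Figure D4:**
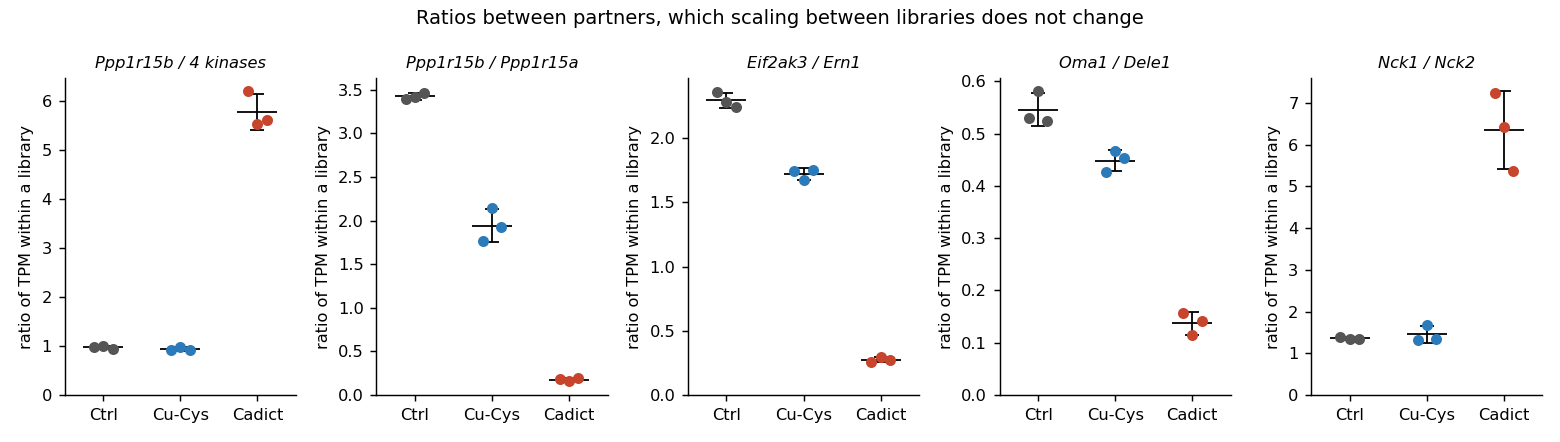
Ratios of TPM between partner genes within each library (points), with the mean and SD of 3 libraries per group (bars), on axes that start at 0. Ppp1r15b per summed kinases and Nck1 per Nck2 were highest in Cadict, at 5.78 and 6.35, and the other 3 ratios were lowest there.

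Compared per length, the order of the 7 genes differed between groups at a few places. In Ctrl the mean TPM was 91.3 for Ppp1r15b, 36.5 for Eif2ak1, 25.6 for Eif2ak2, 23.9 for Nck1, 17.4 for Oma1, 17.1 for Eif2ak4 and 15.1 for Eif2ak3, where Eif2ak2 and Nck1, and Oma1 and Eif2ak4, overlapped between libraries. In Cu-Cys the order was Ppp1r15b at 75.7, Eif2ak1 at 35.7, Nck1 at 20.9, Eif2ak2 at 18.6, Eif2ak4 at 14.9, Oma1 at 12.4 and Eif2ak3 at 11.4, with no overlap between neighbours. In Cadict it was Ppp1r15b at 102.0, Eif2ak1 at 8.72, Nck1 at 5.28, Eif2ak2 at 4.46, Eif2ak4 at 2.503, Oma1 at 2.21 and Eif2ak3 at 1.94, where Nck1 overlapped Eif2ak2, and Oma1 overlapped both Eif2ak4 and Eif2ak3. Ppp1r15b was first, Eif2ak1 second and Eif2ak3 last in each group. The summed TPM of the 4 kinases was 94.3 ± 2.60 in Ctrl, 80.6 ± 1.60 in Cu-Cys and 17.6 ± 2.98 in Cadict. Eif2ak1 made up 38.7% ± 1.19 of that sum in Ctrl, 44.2% ± 0.969 in Cu-Cys and 49.2% ± 2.21 in Cadict, without overlap between the groups. Eif2ak3 went the other way, from 16.0% ± 0.400 to 14.1% ± 0.349 and 11.1% ± 0.511, also without overlap. Eif2ak4 made up 18.2% ± 0.303, 18.5% ± 0.390 and 14.2% ± 0.504, and Eif2ak2 27.1% ± 1.28, 23.1% ± 1.23 and 25.4% ± 1.52 in the same order. In Cadict, HRI transcripts thus came close in TPM to the 3 other kinases combined, and Eif2ak1 per Eif2ak3 was 2.42 ± 0.0285, 3.13 ± 0.0546 and 4.46 ± 0.338.

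Downstream of the kinases, most transcripts of the eIF2 complex and of the ATF4 branch moved up in Cadict under TMM. Of 9 eIF2 and eIF2B subunit genes, 7 rose, 1 fell and 1 did not pass under TMM, whereas under library totals 4 rose and 4 fell. Eif2s2 (2.29), which encodes the beta subunit that binds NCK1, and Eif2s1 (1.85), which encodes the alpha subunit that the kinases phosphorylate, rose the most, and Eif2b5 (-2.10), the catalytic subunit of the exchange factor, fell, all on the log2 scale and with the same direction under library totals. All 19 tested genes of the ATF4 branch, Atf4 itself included, rose under TMM, with 13 called and a median log2 fold change of 1.81. Under library totals 13 rose and 4 fell, and with limma on TPM 12 rose and 6 fell. Atf3 (6.80, SE 0.09, edgeR adjusted p = 3.2e-17) and Ppp1r15a rose the most. In Cu-Cys against Ctrl 9 of the 19 rose, 6 fell and 4 did not pass, and 5 rose when Ctrl replicate 1 or Cu-Cys replicate 1 was left out. Of the 9 subunit genes, 7 also rose in Cu-Cys against Ctrl and 0 fell, with 0 called and a median log2 fold change of 0.24. Under library totals 6 of these 9 rose there, and with limma on TPM 2 did. Of the 12 kinase partners, several of which are named above, 5 rose, 6 fell and 1 did not pass in Cadict, with a median of -0.15, near that of all genes. Under library totals 3 of them rose and 9 fell.

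**Figure D5:**
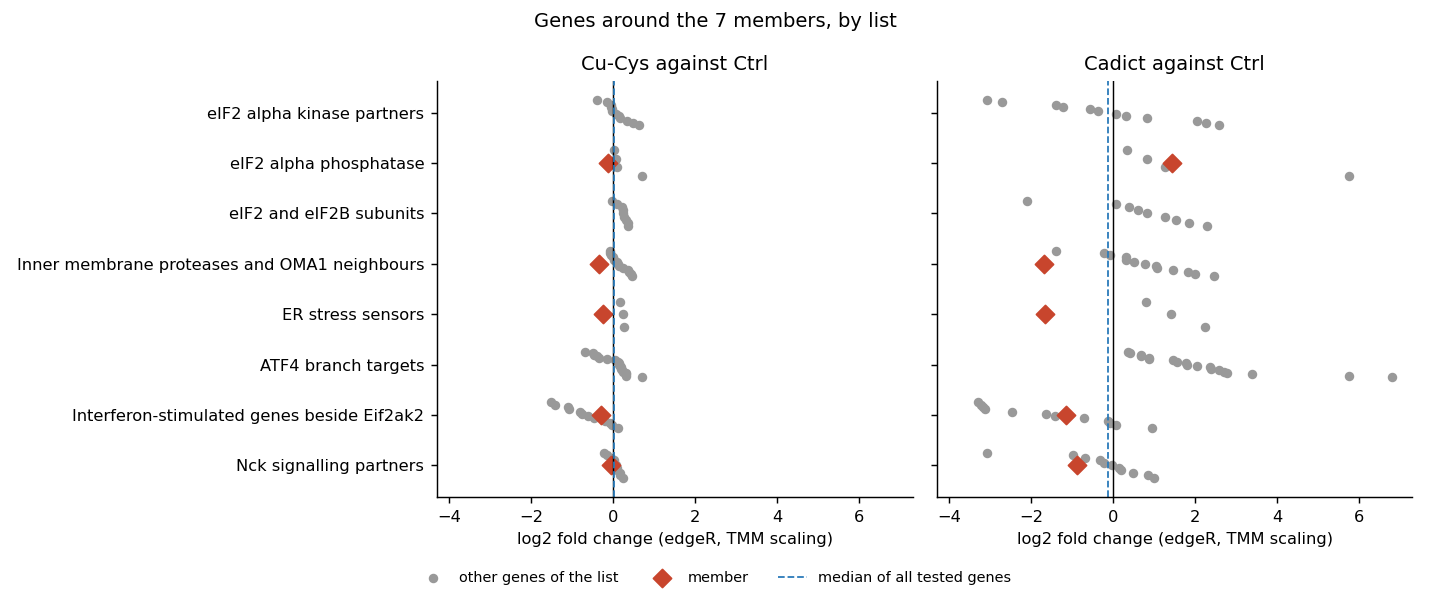
Log2 fold change of the genes around the 7 (grey points) and of the 7 genes where a list holds one (red diamonds), in Cu-Cys and in Cadict against Ctrl, with the median of all tested genes as a dashed line. In Cadict, Eif2ak3 and Oma1 lie below every other tested gene of their lists and Eif2ak2 lies among its list, positions that a shift by -0.95 under library totals would not change.

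Transcript length moved with the change in Cadict and differs between the 7 genes. Tested genes were put into 10 classes of equal size by the length that the deposited counts and FPKM imply, from class 1 with the shortest. The median log2 fold change in Cadict against Ctrl went from 0.80 in class 1 to -0.47 in classes 8 and 9. Eif2ak2, Eif2ak4 and Ppp1r15b were in class 9, where 33.1% of genes were called lower, Eif2ak3 in class 8, Eif2ak1 in class 5, Nck1 in class 4 and Oma1 in class 3, with implied lengths from 1668 to 5766 bases. Eif2ak2 and Eif2ak4 in class 9 and Eif2ak3 in class 8 fell, as the medians of these classes did, and Ppp1r15b in class 9 rose. Eif2ak1 and Nck1 fell in classes with medians of -0.26 and -0.25. Oma1 fell in a class with a median of 0.06, where 22.7% of genes were called lower and 24.4% higher. The part of length in these results was not tested.

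The patterns of the 7 genes over the 9 libraries were compared with those of 9705 other genes that averaged 5 CPM or more, by the root mean square difference of log2 CPM after each gene was centred on its mean. The nearest genes were Selenoi (0.0486) and Crat (0.0548) for Eif2ak1, Ndc80 (0.0464) and Mmut (0.0491) for Eif2ak2, and Smpd1 (0.049996) and Arhgef40 (0.0558) for Eif2ak3. For Eif2ak4 they were Kif18b (0.0476) and Oxr1 (0.0541), for Oma1 Slc25a12 (0.0447) and Stx2 (0.0472), and for Nck1 Napepld (0.0557) and Pccb (0.0637). Ppp1r15b was nearest to Cpox (0.0362), an enzyme of heme synthesis, and Mtpn (0.0488). Among the 7 genes, Eif2ak3 was nearest to Eif2ak4 (0.0987) and to Oma1 (0.111), and Eif2ak2 to Nck1 (0.137). Ppp1r15b was at least 1.10 from each of the other 6.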

How the data were processed

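The authors deposited 1 table that lists, per gene and library, expected counts (estimated reads, not normalized), TPM, FPKM and signal values (counts over a size factor of the library). The submitters' processing notes name HISAT2 2.1.0, Bowtie2 2.3.4.3 and RSEM 1.3.1, and the builds GRCm39 and GRCh38.p13, without their roles. Columns labelled CC were read as Cu-Cys and those labelled CCGE as Cadict, an inference from its components. The 12 columns of group averages and the authors' signal values were not used in tests. The labels name a column RNA kit and DNA nanoballs, whereas the study's text names TRIzol and a Novaseq instrument.

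Expected counts were rounded and fitted in R 4.3.3 with edgeR 4.0.16 (filterByExpr, TMM, quasi-likelihood test, 1 fit of 9 libraries and 3 groups, Benjamini-Hochberg over 11949 tested genes), and the procedure was tested on simulated data. SE is the absolute log2 fold change divided by the square root of F. Alternatives used DESeq2 1.42.0, limma 3.58.1 on log2 of TPM or FPKM with pseudocounts of 1 and 0.1, other scalings and filters, a replicate block and each library left out. Fold changes on log2(value + pseudocount) understate low genes. The 7 genes were named by symbol. The 7 genes, the lists and the rules were chosen with earlier results of these data known. From each list the text names the 2 largest rises and 2 largest falls in Cadict against Ctrl that were called at an average of at least 5 CPM, all tested kinase partners and phosphatase genes, and the 2 genes nearest in pattern to each of the 7. Outside this rule it also names Atf4, Atf6b, Bst2, Immp1l and markers of cell types. Promoter windows (250 bases before to 50 after the start) are from RefSeq, and shared stretches from GENCODE M21 transcripts. Replicate numbers were not treated as pairs, and library depth was 17905771 to 18293056 counts. Some genes of the lists are not reported here by themselves.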

Additional observations from a re-analysis of the deposited data

How the results depend on the processing

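In Cadict against Ctrl, 133 pairs of a gene and an alternative were compared with the main fit. Of these, 131 kept their direction and their side of an adjusted p of 0.05. The 2 exceptions were Ppp1r15b with limma on TPM, at 0.14 with either pseudocount (adjusted p = 0.214 and 0.215), where the other tests gave 0.48 to 1.57. In Cadict against Cu-Cys all 133 kept both. Leaving out each library in turn gave ranges of -0.86 to -0.69 for Eif2ak1, -1.19 to -1.10 for Eif2ak2, -1.70 to -1.62 for Eif2ak3, -1.55 to -1.45 for Eif2ak4, 1.41 to 1.52 for Ppp1r15b, -1.78 to -1.61 for Oma1 and -0.93 to -0.84 for Nck1. It left 5 genes called for Cadict and 0 for Cu-Cys against Ctrl, and 4 for Cadict against Cu-Cys. In the same fits, 46.3% to 47.5%, 1.19% to 1.9% and 40.8% to 41.9% of all tested genes were called in these comparisons.

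Under library totals, TPM and FPKM, 6 genes were called lower and 0 higher in both Cadict comparisons. Lower calls took 51.5%, 54.2% (pseudocount 1) and 41.5% of all tested genes against Ctrl and 47.7%, 48.4% and 37.7% against Cu-Cys, and higher calls among all called genes in Cadict against Ctrl were 11.9%, 5.67% and 11.01%, against 43.3% with TMM. Directions in Cadict against Ctrl that turned were, under library totals, Adar -0.88, Hspa5 -0.13, Dele1 -0.63, Ppp1ca -0.13 and Ppp1cc -0.62; with limma on TPM and a pseudocount of 1, Adar -1.15, Hspa5 -0.49, Dele1 -0.94, Ppp1ca -0.49, Ppp1cb -0.0296 and Ppp1cc -0.93, and with 0.1, Adar -1.22, Hspa5 -0.49, Dele1 -0.98, Ppp1ca -0.49, Ppp1cb -0.03 and Ppp1cc -0.93; with FPKM, Adar -0.80, Hspa5 -0.14, Dele1 -0.60, Ppp1ca -0.15 and Ppp1cc -0.58. Without a filter Adar was at -0.0087. Eif2ak1 in Cu-Cys against Ctrl was at -0.0313 with TPM and a pseudocount of 1 and at -0.032 with 0.1. Ppp1r15b passed in Cu-Cys against Ctrl under 5 alternatives (log2 fold change -0.20 under library totals). The cause of these turns was not tested.

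Residuals of libraries with the same replicate number correlated at -0.15 to 0.14 between groups, and 4 of 9 libraries correlated best with their own number. With the replicate block 5685 genes were called in Cadict against Ctrl, against 5707 without it, Ppp1r15b was at 1.45, and the calls of the 7 genes did not change. The fewest counts were 44, for Oma1 in Cadict replicate 2.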
